A study of Mus musculus with 8 samples.

Results

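The genes described here mark the blood vessels of the brain and their barrier: endothelial cells, which line the vessels, pericytes, which wrap around them, and the junction proteins and carriers that make the vessel wall selective. The list holds 35 genes chosen by name, and 34 of them were measured among 20352 genes on the array. They were followed in the cerebellum of 28-day-old animals, 4 of them wild-type and 4 Cic-L-null, with 1 Affymetrix Mouse Gene 1.0 ST array per animal. Cic-L-null is the label of mice with a mutation of the long form of Capicua, a repressor that binds DNA, and a mixed Swiss Webster (CD-1) background is given for all 8 animals. No further allele, treatment or promoter is named, and no label restricts the allele to vessel cells. Wild-type replicate 1 is labelled with a Trizol extraction and RNeasy cleanup, whereas the labels of the other 7 arrays name only a standard protocol. The comparison addresses which cerebellar RNAs differ between Cic-L-null and wild-type mice.

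Brain endothelial cells are joined by tight junctions and carry few vesicles, so most molecules reach the tissue through carriers or not at all. Efflux pumps return drugs and toxins to the blood, while carriers bring in glucose, amino acids, lactate and lipids, and receptors bring in iron. Pericytes share the basement membrane with the endothelium and help to keep the barrier closed, and Wnt signals from the neural tissue keep the endothelium in its barrier state. In whole cerebellum these cells are a small part of the tissue, so fewer cells of a type and less RNA per cell cannot be told apart.

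The targeted gene was checked as a test of the labels. Cic had log2 values of 8.74, 8.57, 8.63 and 9.19 in wild-type and 7.50, 7.48, 7.62 and 7.54 in Cic-L-null replicates 1 to 4. Every mutant array lay below every wild-type array, and Cic fell by 1.25 log2 units (SE 0.12, adjusted p = 0.00818, limma). Array medians lay between 7.82 and 7.88. All 34 measured genes had a mean over the 8 arrays above the dim limit of 6.21, the 95th percentile of 985 olfactory receptor genes, which served as a guide to background. The lowest of the 34 means was 6.415, and 68.8% of all genes passed the same limit. RNA of these genes was thus above this guide to background in the tissue. Y-linked genes were high and Xist low in wild-type replicates 1 and 4 and in Cic-L-null replicates 1, 2 and 4, and the other 3 arrays had the reverse. Ly6c1, a surface antigen of endothelium, had only probe sets shared with other genes and is not analysed here.

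The sequences upstream of 4 of these genes are shown because they stand for the barrier functions whose values are given at most length: a surface protein (Itm2a), a tight junction (Cldn5), an anion carrier (Slco1a4) and a lipid carrier (Mfsd2a). They are the 250 bases before the annotated start, 5′ to 3′ on the gene's strand, from RefSeq on GRCm38.p6. There, 23 of the 35 genes had an entry, with 30 promoters. The regions are chrX:107403361-107403610 on the minus strand for Itm2a, chr16:18776597-18776846 on the plus strand for Cldn5, chr6:141856221-141856470 on the minus strand for Slco1a4 and chr4:122961189-122961438 on the minus strand for Mfsd2a. Capitals mark matches, on either strand, to letters of the ETS class (CCGGAA and CAGGAA) or of the SOX class (ATTGTT and CATTGT), families of transcription factors that act in endothelium. ATTGTT and CATTGT overlap, so that 7 bases can match both.
Itm2a: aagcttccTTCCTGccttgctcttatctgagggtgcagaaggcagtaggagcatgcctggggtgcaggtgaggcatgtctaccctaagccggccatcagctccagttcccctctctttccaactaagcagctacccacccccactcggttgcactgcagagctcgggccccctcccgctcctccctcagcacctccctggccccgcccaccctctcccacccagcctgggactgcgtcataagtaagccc
Cldn5: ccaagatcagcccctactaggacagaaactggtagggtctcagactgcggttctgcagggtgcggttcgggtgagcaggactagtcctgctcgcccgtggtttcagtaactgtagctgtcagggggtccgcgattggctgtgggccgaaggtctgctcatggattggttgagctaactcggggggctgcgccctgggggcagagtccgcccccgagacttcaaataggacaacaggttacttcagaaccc
Slco1a4: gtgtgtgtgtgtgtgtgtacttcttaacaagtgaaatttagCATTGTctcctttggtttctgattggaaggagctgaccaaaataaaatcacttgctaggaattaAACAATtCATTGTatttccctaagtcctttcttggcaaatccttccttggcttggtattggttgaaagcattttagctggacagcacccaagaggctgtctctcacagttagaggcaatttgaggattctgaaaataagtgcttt
Mfsd2a: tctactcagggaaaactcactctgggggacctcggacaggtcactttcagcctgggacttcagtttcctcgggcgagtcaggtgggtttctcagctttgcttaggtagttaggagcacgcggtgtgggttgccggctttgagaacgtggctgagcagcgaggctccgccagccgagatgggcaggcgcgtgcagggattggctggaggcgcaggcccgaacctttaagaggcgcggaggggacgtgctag
Itm2a held CAGGAA on the opposite strand, beginning 242 bases before the start. Slco1a4 held CATTGT at 209 and 138 bases and ATTGTT on the opposite strand at 145 bases, whereas Cldn5 and Mfsd2a held none of these letters. Over the 30 promoters, 12 held an ETS hexamer, against 35.1% of all 32851 promoters of that length, and 4 held a SOX hexamer, against 16.2%. The octamers that Capicua is known to bind (TGAATGAA, TGAATGGA, TCAATGAA and TCAATGGA, both strands) were in 0 of the 30 and in 3.19% of all promoters. A match is a description of letters in this window and not of binding.

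Across the 34 genes most values lay slightly lower in the mutants, and none passed the test over all genes. The difference, Cic-L-null minus wild-type on the log2 scale, was below 0 for 28 genes, against 53.0% of all genes, and above 0 for 6. The 28 include Ocln at -1.8e-05, and 24 to 27 genes were below 0 with arrays left out in turn. The median was -0.066, beside -0.0071 over all genes. It was -0.10 without wild-type replicate 3 and -0.051 without Cic-L-null replicate 4. At an adjusted p under 0.05 the count was 0 of 34, against 0.138% of all genes. At an unadjusted p under 0.05, Itm2a, Cldn5, Abcb1a and Tfrc were lower, and the background in that direction was 4.70%. This count was 2 without Cic-L-null replicate 1 and 2 without Cic-L-null replicate 2. Vwf and Mfsd2a were higher at the same limit, and the background in that direction was 4.56%. The 4 mutant arrays lay below all 4 wild-type arrays for Itm2a, Cldn5, Foxq1, Abcb1a and Tfrc, against 2.91% of all genes, and above them for Vwf, against 3.02%. When the median of a gene's probe sets replaced their mean, Cldn5, Abcb1a and Tfrc overlapped between the groups, while Tek, Nos3 and Esam were lower and Mfsd2a higher without overlap. Itm2a, Foxq1 and Vwf were separate either way. With that combination Pecam1, Ramp2, Ocln, Abcg2 and Slco1c1 moved above 0, and none moved below 0. The median over the 34 genes was then -0.11, beside -0.0071 over all genes. The share of all genes that separate by the median of their probe sets was not computed, so the genes separate by it have no background beside them. The exact permutation test cannot go below p = 0.0286 with 4 against 4, and any gene whose groups do not overlap must reach that value. For the 6 genes separate by their mean values it therefore adds nothing to the separation itself. The standard error of a difference ranged from 0.056 to 0.32 with a median of 0.075, and for 14 genes the 95% interval lay within 0.25 log2 units of 0.

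**Figure D1:**
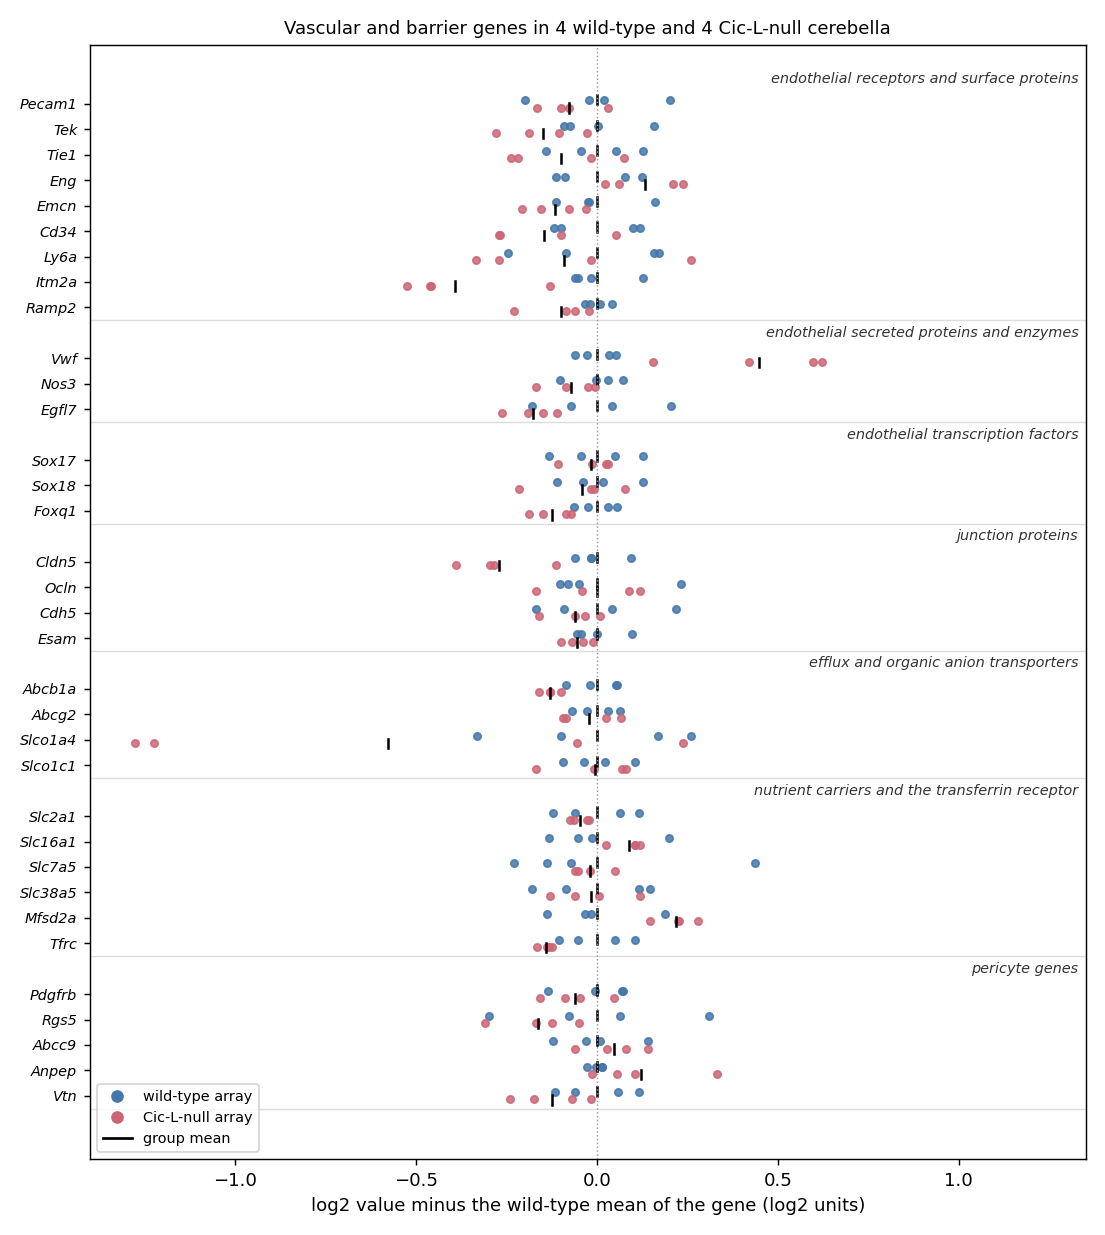
Log2 value of each array minus the wild-type mean of the gene (horizontal axis, log2 units) for the 34 measured genes, grouped by role, with 4 wild-type points, 4 Cic-L-null points and the group means as bars. The points of Itm2a, Cldn5, Foxq1, Abcb1a and Tfrc separate to the lower side and those of Vwf to the higher side, while Cic-L-null replicates 1 and 2 of Slco1a4 lie apart from the other 6 arrays.

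Of the 9 measured endothelial receptors and surface proteins, 8 were below 0, with a median of -0.099. Itm2a, a membrane protein enriched in brain endothelium, had values of 10.19, 10.16, 10.15 and 10.34 in wild-type and 9.75, 9.69, 10.08 and 9.75 in Cic-L-null replicates 1 to 4. Every mutant array lay below every wild-type array, though replicate 3 was close to the lowest of them. The difference was -0.39 (SE 0.090, 1.31-fold, adjusted p = 0.158 with limma), and all 6 probe sets of Itm2a were lower. Its adjusted p was 0.041 without Cic-L-null replicate 3 and 0.0375 with a variance trend and robust estimation, where it was the only gene of the 34 past the threshold. Itm2a is on the X chromosome. The highest mutant array was the mutant array with Xist signal, whereas the 2 wild-type arrays with Xist signal were the lowest of their group. With a covariate of Y-linked genes the difference was -0.37 (adjusted p = 0.236, limma).

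Tek, the receptor of angiopoietins, had values of 7.92, 7.69, 7.77 and 7.67 in wild-type and 7.57, 7.66, 7.74 and 7.48 in the mutants. The groups overlapped, and the difference of -0.15 (SE 0.077) had an adjusted p of 0.615 with limma. With the median of its probe sets the groups separated at -0.23. Pecam1, an adhesion molecule of the endothelial surface, had values of 7.86, 7.63, 7.46 and 7.67 in wild-type and 7.58, 7.55, 7.68 and 7.49 in the mutants. Wild-type replicate 1 was its highest array and wild-type replicate 3 its lowest, so the whole mutant group lay inside the wild-type range. The difference was -0.078, and it was 0.050 when the median of the probe sets replaced their mean.

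The other surface proteins overlapped between the groups. The differences were -0.099 for Tie1, a receptor related to Tek, and -0.12 for Emcn, a sialomucin of capillaries and veins, with -0.060 by the median of its probe sets. Cd34, a sialomucin shared with blood progenitors, differed by -0.15, and all 8 of its probe sets were below 0. Ly6a, also called Sca-1, differed by -0.089, but leaving out Cic-L-null replicate 4 gave -0.0077 and leaving out replicate 2 of that group gave -0.21. Ramp2, a partner of the adrenomedullin receptor, differed by -0.099. Eng, a co-receptor of the TGF-beta family, was the exception at 0.13, with 13 of its 16 probe sets above 0 and an adjusted p of 0.679 (limma), though the median of the probe sets gave 0.049.

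Vwf, the clotting factor stored in endothelial granules, stood opposite to most of the list. Its values were 7.34, 7.26, 7.22 and 7.32 in wild-type and 7.44, 7.88, 7.91 and 7.71 in the mutants. All 4 mutant arrays lay above all 4 wild-type arrays, with Cic-L-null replicate 1 nearest to them. The difference was 0.45 (SE 0.098, 1.37-fold), with an adjusted p of 0.136 in limma, the smallest of the 34 genes. Of its 55 probe sets, 49 were higher in the mutants, with a median of 0.47. With the arrays left out in turn the difference ranged from 0.39 to 0.55.

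The 2 other secreted proteins and enzymes did not separate. Egfl7, a protein that endothelial cells deposit around forming vessels, had values of 7.99, 7.89, 8.11 and 8.27 in wild-type and 7.87, 7.80, 7.95 and 7.92 in the mutants. The upper mutant arrays overlapped the lower wild-type ones, and the difference was -0.18 (SE 0.083, adjusted p = 0.559, limma). Nos3, the endothelial nitric oxide synthase, differed by -0.071, and by -0.16 with the median of its probe sets.

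All 3 transcription factors were below 0, with a median of -0.040. Foxq1, a forkhead factor enriched in brain endothelium, had values of 7.06, 7.16, 7.10 and 7.18 in wild-type and 6.94, 6.98, 7.05 and 7.04 in the mutants. The groups did not overlap, but the gap between the highest mutant and the lowest wild-type array was small. The difference was -0.12 (SE 0.057, adjusted p = 0.554, limma) over 2 probe sets. Sox18, a factor of vessel formation, had values of 7.70, 7.78, 7.94 and 7.83 in wild-type and 7.80, 7.89, 7.80 and 7.60 in the mutants. These groups overlapped almost fully, and the difference was -0.040. Its relative Sox17, a factor of arterial endothelium, differed by -0.016, but by -0.18 with the median of its probe sets and -0.12 over those above the dim limit.

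The 4 junction genes were led by Cldn5, the main claudin of the tight junctions of brain endothelium. Its values were 8.75, 8.71, 8.75 and 8.86 in wild-type and 8.48, 8.49, 8.66 and 8.38 in the mutants. All 4 mutant arrays were below all 4 wild-type arrays, with replicate 3 again the nearest. The difference was -0.27 (SE 0.070, 1.21-fold, adjusted p = 0.218 with limma), and its 3 probe sets were all lower. Esam, an adhesion molecule of endothelial junctions, had values of 7.39, 7.34, 7.33 and 7.49 in wild-type and 7.32, 7.29, 7.38 and 7.35 in the mutants. These overlapped, and the difference was -0.055. It depended on how the 7 probe sets were combined: their medians were 7.51, 7.30, 7.48 and 7.66 in wild-type and 7.08, 7.27, 7.13 and 6.88 in the mutants. Those did not overlap, and the difference was -0.39 (adjusted p = 0.313 with limma). Cdh5, the cadherin of endothelial adherens junctions, differed by -0.061 with overlapping groups. Ocln, a transmembrane protein of tight junctions, had the same mean of 7.63 in both groups, with a 95% interval of the difference from -0.20 to 0.20, and its sign turned when arrays were centred (0.0033).

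All 4 efflux and organic anion transporters were below 0, with a median of -0.075. Abcb1a, the P-glycoprotein pump that exports many drugs, had values of 8.86, 8.79, 8.73 and 8.87 in wild-type and 8.65, 8.68, 8.71 and 8.68 in the mutants. The mutant arrays were tightly grouped just under the lowest wild-type array. The difference was -0.13 (SE 0.056, 1.09-fold, adjusted p = 0.509 with limma), and 23 of its 27 probe sets were below 0. Abcg2, the breast cancer resistance protein pump, differed by -0.021. Slco1c1, a carrier of thyroxine, differed by -0.0063.

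Slco1a4, a carrier of organic anions and bile acids, had the widest spread. Its values were 8.85, 9.12, 8.62 and 9.21 in wild-type and 7.67, 7.72, 9.19 and 8.89 in the mutants. Cic-L-null replicates 1 and 2 lay below all other arrays, whereas Cic-L-null replicates 3 and 4 lay inside the wild-type range. The difference was -0.58 (SE 0.32, adjusted p = 0.651 with limma). Leaving out Cic-L-null replicate 1, 2 or 3 gave -0.35, -0.36 and -0.85, and the adjusted p stayed between 0.342 and 0.866 with each array left out.

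**Figure D2:**
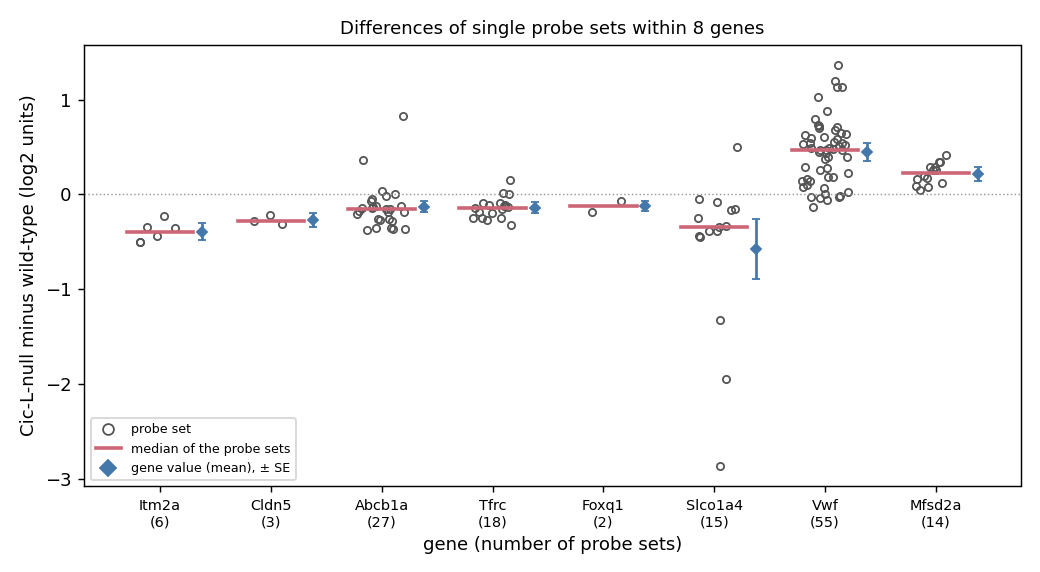
Difference of each probe set (open circles, Cic-L-null minus wild-type in log2 units) for 8 genes, where a bar marks their median and a diamond the gene value with its standard error. All 6 probe sets of Itm2a and all 3 of Cldn5 lie below 0, all 14 of Mfsd2a lie above 0, and Slco1a4 has 3 probe sets far below its others.

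The size of the spread differed between the probe sets of Slco1a4. The mutant arrays spanned 3.54 to 6.67 log2 units in 3 probe sets and 0.31 to 1.71 in the other 12. Probe set 10548999 had values of 9.22, 10.08, 8.63 and 9.96 in wild-type and 4.06, 3.25, 9.92 and 9.19 in the mutants. Probe set 10549002 had 9.93, 10.71, 9.79 and 10.68 in wild-type and 6.64, 6.22, 10.64 and 9.84 in the mutants. Probe set 10549010 had 8.26, 8.80, 7.42 and 8.70 in wild-type and 5.66, 5.17, 8.70 and 8.33 in the mutants. In each of these 3 the same arrays, Cic-L-null replicates 1 and 2, were low by several log2 units, and the other mutants were level with wild-type.

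The mean of the other 12 probe sets of Slco1a4 was 8.77, 8.93, 8.62 and 9.06 in wild-type and 8.22, 8.44, 9.04 and 8.83 in the mutants. The same 2 mutant arrays were again the lowest of the 8, by a smaller margin. With the 3 wide probe sets left out, an alternative chosen after seeing the data, the difference was -0.21 (SE 0.17, adjusted p = 0.780 with limma). The difference of the gene value was thus mostly that of these 3 probe sets on 2 arrays. The related carrier Slco1c1 had 1 probe set, 10542606, with values of 9.92, 9.90, 9.82 and 9.87 in wild-type and 9.22, 9.21, 9.73 and 9.63 in the mutants. There too Cic-L-null replicates 1 and 2 were the lowest, and the gene value did not follow, since 11 of its 18 probe sets were above 0. The reason was not tested.

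**Figure D3:**
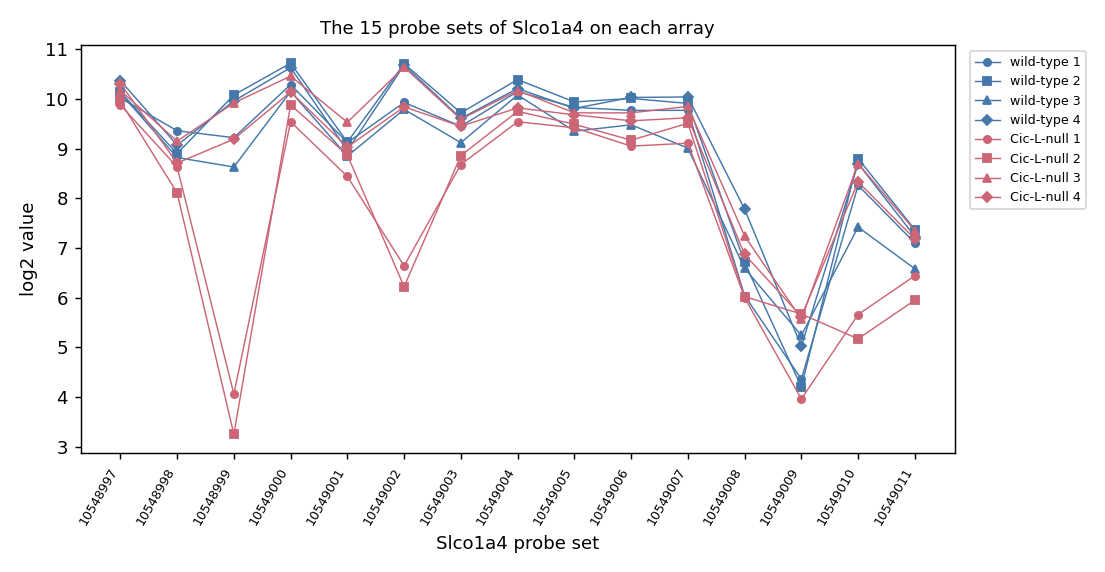
Log2 value (vertical axis) of the 15 probe sets of Slco1a4 (horizontal axis, by identifier) on the 8 arrays, with a line per array. Cic-L-null replicates 1 and 2 drop to between 3.25 and 6.64 at 10548999, 10549002 and 10549010, where the other 6 arrays stay between 7.42 and 10.71.

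Among the 6 nutrient carriers and the transferrin receptor the differences ran both ways, with a median of -0.018. Mfsd2a, a carrier of omega-3 lipids that also restrains vesicle traffic in brain endothelium, had values of 8.77, 8.44, 8.56 and 8.55 in wild-type and 8.73, 8.86, 8.81 and 8.80 in the mutants. Wild-type replicate 1 lay above the lowest mutant array, and the other 3 wild-type arrays lay below all mutants. The difference was 0.22 (SE 0.074, 1.16-fold, adjusted p = 0.362 with limma), all 14 probe sets were higher, and the exact permutation p was 0.0571. Tfrc, the transferrin receptor that takes up iron, had values of 10.39, 10.45, 10.24 and 10.29 in wild-type and 10.18, 10.21, 10.21 and 10.22 in the mutants. All mutant arrays lay below wild-type by a narrow gap. The difference was -0.14 (SE 0.061, adjusted p = 0.520 with limma), with 15 of 18 probe sets below 0. The median of the probe sets gave -0.23 with overlapping groups.

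The remaining carriers overlapped. Slc2a1, the glucose transporter GLUT1, had values of 9.94, 9.88, 10.12 and 10.07 in wild-type and 9.93, 9.98, 9.94 and 9.98 in the mutants. The mutants lay inside the wild-type range, and the 95% interval of the difference of -0.046 ran from -0.19 to 0.098. The median of the probe sets gave -0.12. Slc16a1, the lactate carrier MCT1, differed by 0.089, and Slc38a5, a glutamine carrier, by -0.017. With the median of its probe sets Slc38a5 differed by -0.21, with overlapping groups. Slc7a5, the large neutral amino acid transporter LAT1, had 10.53 on wild-type replicate 1 and 9.87, 9.96 and 10.03 on the other wild-type arrays, beside 10.04, 10.15, 10.05 and 10.08 in the mutants. Its difference of -0.020 turned to 0.13 without that wild-type array.

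Pericyte genes gave 3 values below and 2 above 0, with a median of -0.061 and no group without overlap. Pdgfrb, the receptor through which endothelial PDGF-B recruits pericytes, had values of 8.30, 8.10, 8.31 and 8.23 in wild-type and 8.08, 8.28, 8.19 and 8.15 in the mutants. The groups overlapped, and the difference was -0.061 with a 95% interval from -0.21 to 0.093, and -0.10 by the median of the probe sets. Vtn, the matrix protein vitronectin, made in brain mainly by pericytes, had 9.97, 9.80, 9.85 and 10.03 in wild-type and 9.74, 9.90, 9.85 and 9.68 in the mutants. Its difference was -0.12 (SE 0.074), with all 9 probe sets below 0 and overlapping arrays, but the median of its probe sets gave -0.020. Anpep, the aminopeptidase CD13, had 6.37, 6.33, 6.35 and 6.37 in wild-type and 6.41, 6.34, 6.69 and 6.46 in the mutants. These values were close to the dim limit, and Cic-L-null replicate 3 was the highest. The difference was 0.12, and 0.050 without that array. Rgs5, a regulator of G protein signalling, differed by -0.16 with all 8 probe sets below 0. Probe sets 10351462 and 10351464 of Rgs5 had the same values on every array, so they are not separate measurements. The difference of Rgs5 was -0.059 without wild-type replicate 1 and -0.26 without wild-type replicate 2. Abcc9, a subunit of potassium channels, differed by 0.048.

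At the level of single probe sets, 515 belonged to these genes, with 2 to 55 per gene. Of these, 301 (58.4%) had a difference below 0, against 48.4% of all probe sets, and 0 had an adjusted p under 0.05, against 0.000414% of the 241576 probe sets of the array (limma).

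Other genes of the same pathways were followed from lists written from general knowledge, with earlier results of these data known. None passed the adjusted threshold. Of 30 other endothelial genes, 16 were below and 14 above 0, with a median of -0.025. At an unadjusted p under 0.05 (limma), 1 was lower and 3 were higher, against 4.70% and 4.56% of all genes. No gene had separate groups. Kdr, the main VEGF receptor of endothelium, had values of 8.01, 7.55, 7.44 and 7.87 in wild-type and 8.16, 8.21, 8.17 and 7.88 in the mutants. Only Cic-L-null replicate 4 lay inside the wild-type range, and the difference was 0.39 (SE 0.13, adjusted p = 0.336 with limma). Epas1, a hypoxia-inducible factor abundant in endothelium, differed by 0.17.

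Of 14 other junction genes, 6 were below and 8 above 0, with a median of 0.0046. Jam3, a junctional adhesion molecule, had 8.17, 8.18, 8.16 and 8.16 in wild-type and 7.96, 8.07, 8.07 and 7.93 in the mutants. Its groups did not overlap, and the difference was -0.16 (adjusted p = 0.372 with limma), while Afdn, a scaffold of adherens junctions, differed by 0.15. Of 19 other barrier transporters, 8 were below and 11 above 0, with a median of 0.017. The groups did not overlap for 2 lower and 3 higher genes, against 2.91% and 3.02% of all genes. Lrp8, a receptor of reelin and apolipoprotein E that neurons also express, had 9.80, 9.78, 9.82 and 9.68 in wild-type and 10.05, 9.97, 10.11 and 10.14 in the mutants, a difference of 0.30 (adjusted p = 0.110 with limma). Slc6a6, the taurine transporter, had 9.03, 8.85, 8.91 and 8.99 in wild-type and 9.13, 9.29, 9.31 and 9.31 in the mutants, a difference of 0.32 (adjusted p = 0.128 with limma). For both genes all mutant arrays lay above all wild-type arrays.

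Of 20 genes of the Wnt and beta-catenin programme, which keeps brain endothelium in its barrier state, 12 were below and 8 above 0, with a median of -0.032. Tnfrsf19, a Wnt-induced receptor, differed by -0.19 and Axin2, a feedback target of Wnt signalling, by 0.18, both with overlapping groups. Of 35 signalling genes of pericytes and smooth muscle, 12 were below and 23 above 0, with a median of 0.028. Among them 3 higher genes had no overlap, against 3.02% of all genes. Angpt2, an angiopoietin that antagonises Tek, had 5.83, 5.74, 5.61 and 5.97 in wild-type and 6.22, 6.29, 6.05 and 6.26 in the mutants, a difference of 0.42 (adjusted p = 0.113 with limma). Its groups did not overlap, but its mean lay under the dim limit. Hey1, a target of Notch signalling, had 8.80, 8.78, 8.81 and 8.82 in wild-type and 8.94, 9.08, 8.94 and 9.07 in the mutants, a difference of 0.21 without overlap. Of 14 basement membrane genes, 9 were below and 5 above 0, with a median of -0.065. Col4a1, a chain of the collagen of basement membranes, differed by -0.18 without overlap, and Nid1, a linker of that membrane, by -0.18 with overlap.

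The arrays themselves differed across the 34 genes. Wild-type replicate 1 was the highest of its group for 15 genes and wild-type replicate 4 for 13, while wild-type replicate 3 was the lowest for 17 and wild-type replicate 2 for 13. In the mutants, replicate 3 was the highest for 16 genes and replicate 1 the lowest for 12. The median deviation from the wild-type mean was 0.056, -0.056, -0.072 and 0.054 in wild-type and -0.071, -0.056, -0.037 and -0.087 in the mutants. Wild-type replicates 2 and 3 thus lay within or near the mutant range, and wild-type replicates 1 and 4 were the 2 arrays above 0. Within wild-type this split is also that of sex: replicates 1 and 4 had Y-linked signal, and replicates 2 and 3 had Xist signal. In the mutants the array with Xist signal, replicate 3, was the highest at -0.037. Wild-type replicate 1, unlike wild-type replicate 4, is also the array labelled with a Trizol extraction and RNeasy cleanup. The parts of sex and of this label in the split were not tested.

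Markers of the other cell types in the dissected tissue are given beside this shift. Of 11 oligodendrocyte markers, 10 were below 0, with a median of -0.12, a mean level of 10.001 to 10.080 in wild-type and 9.88 to 9.95 in the mutants, which did not overlap. Mobp, a myelin protein, differed by -0.30 and Cldn11, the claudin of myelin, by -0.21. Of 12 astrocyte and Bergmann glia markers, 7 were below and 5 above 0, with a median of -0.028. Their levels were 10.01 to 10.13 and 9.99 to 10.09. Gdf10 and S100b, both glial, differed by -0.33 and -0.36 without overlap, whereas Slc1a2 was higher by 0.12 without overlap. These were the 2 lower and 1 higher genes with separate groups, against 2.91% and 3.02% of all genes. Of 11 granule and Purkinje cell markers, 5 were below and 6 above 0, with a median of 0.030 and levels of 11.60 to 11.76 and 11.68 to 11.72. Slc17a7, a vesicular glutamate transporter, differed by 0.13 and Etv1, a granule cell factor, by 0.16.

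Cells that surround or fill the vessels varied within the groups. Of 12 meningeal and perivascular fibroblast markers, 7 were below 0 with a median of -0.062 and levels of 7.93 to 8.04 in wild-type and 7.93 to 8.06 in the mutants, and Igf2 and Col1a1 differed by -0.22 and -0.24. Of 10 choroid plexus markers, 7 were below 0 with a median of -0.068, and levels ran from 7.51 to 7.93 and from 7.013 to 7.999. Cic-L-null replicate 3 was the lowest of them, with Sostdc1 and Kl differing by -0.58 and -0.45. Microglia and macrophage markers had a median of 0.019 over 11 genes and levels of 6.984 to 7.003 and 6.94 to 7.03, with 0.14 for C1qa and -0.15 for C1qc. Of 12 blood markers 6 were measured, 2 of them above the dim limit, with a median of 0.093 and levels of 6.01 to 6.24 and 6.09 to 6.33. Alas2, an enzyme of haem synthesis in red cell precursors, differed by 0.50, and Hbb-b1, a globin below the dim limit, by -0.45. The part of these other cell types in the values of the vessel and barrier genes was not tested.

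**Figure D4:**
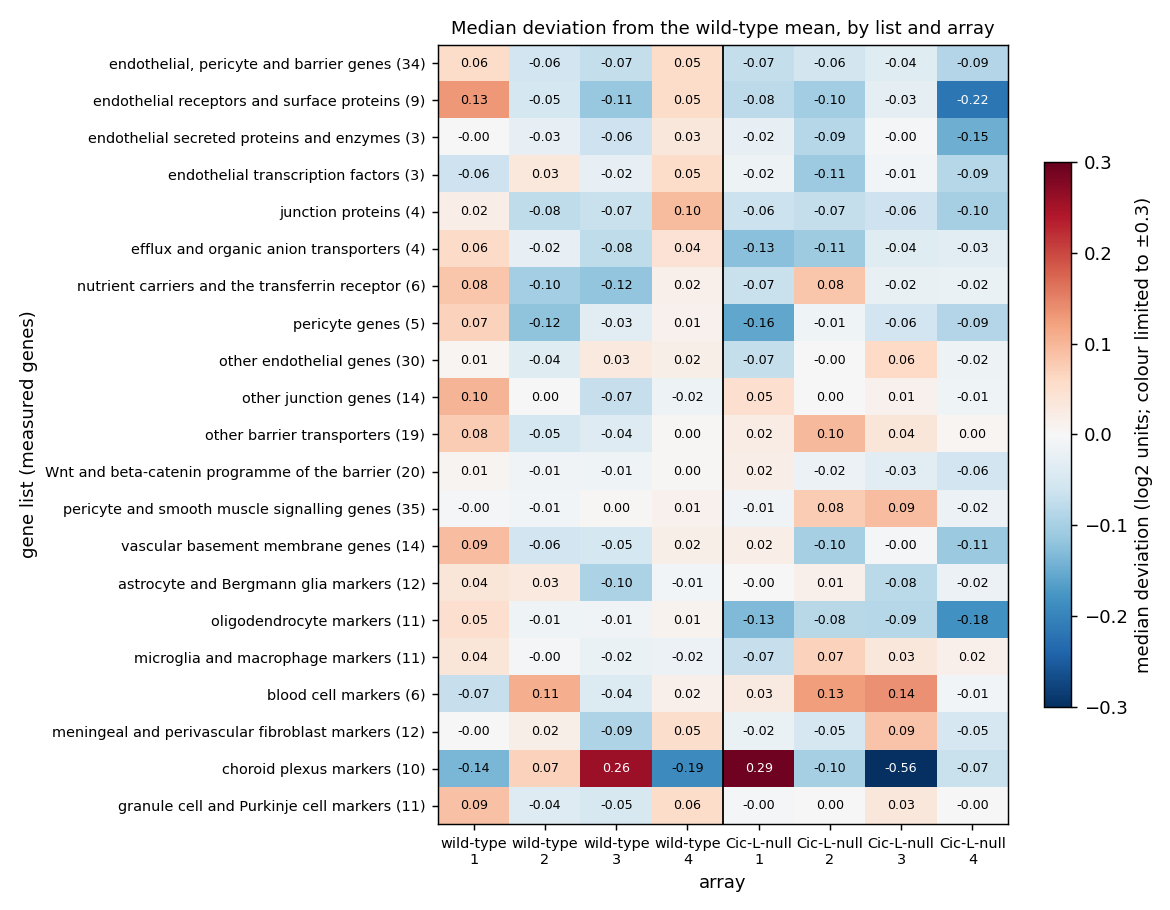
Median deviation from the wild-type mean (log2 units, colour limited to 0.3 either way, value printed in each cell) of each list of genes (rows, number of measured genes in parentheses) on each of the 8 arrays (columns). The row of the 34 vessel and barrier genes is above 0 on wild-type replicates 1 and 4 and below 0 on the other 6 arrays, and oligodendrocyte markers are below 0 on all 4 Cic-L-null arrays.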

How the data were processed

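The deposited table holds log2 expression values of 241576 probe sets on 8 arrays. Per the submitters' processing notes, the authors used RMA and the Affymetrix Power Tools. Their versions and the genome build were not given in the sources used. RMA equalises the arrays, which can hide a shift shared by most genes.

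Probe sets with exactly 1 symbol in the platform annotation (212097) were used, older symbols were replaced through the RefSeq gene table of GRCm38.p6, and the log2 values of a gene's probe sets were averaged, for 20352 genes. Groups came from the sample titles. Cic-L-null was compared with wild-type with limma 3.58.1 in R 4.3.3 (lmFit, eBayes without trend, two-sided, group as the only term), adjusted by Benjamini-Hochberg over all genes and called at an adjusted p under 0.05. Exact permutation tests over the 8 arrays were two-sided. The fit was tested on simulated data. Levels of different genes are not comparable on this array. The labels do not say how each animal's RNA was otherwise handled, and arrays give no read depth, so the 4 arrays per group limit the precision.

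The genes and all lists were chosen with earlier results of these data known and are no independent evidence of a direction. Mfsd2a stands in the annotation under its older symbol. Every gene of the list is named. Values of every array are printed for the 2 genes of each role with the smallest p and for Cldn5, Pecam1, Slc2a1, Abcb1a and Pdgfrb. Of each other list the 2 genes with the smallest p are named. Values of Slc7a5 and of single probe sets of Slco1a4 and Slco1c1 are printed after they were seen.

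Alternatives covered the combination of probe sets, limits on dim values, centring, quantile normalisation, the variance model, array weights, a covariate of Y-linked genes, a replicate block, the threshold and each array left out in turn. Both groups are numbered 1 to 4, and the deviations of same-numbered arrays correlated at 0.219, 0.000325, 0.207 and 0.0262, so the numbers were not taken to pair the animals.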

Additional observations from a re-analysis of the deposited data

Results flagged for a closer look

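The 126 groups of 4 arrays considered include those of Xist and Kdm5d, which were left out of the check. Of the rest, 6 held an array whose distance to the nearest other exceeded Dixon's critical value as a share of the group's range. Chance gives about 1 in 20. Itm2a was 10.08 on Cic-L-null replicate 3, with the other mutants between 9.69 and 9.75. Ocln was 7.86 on wild-type replicate 1, with the other wild-type arrays between 7.53 and 7.58. Slc16a1 was 9.30 on Cic-L-null replicate 4, below the others at 9.38 to 9.39. Kdr was 7.88 on Cic-L-null replicate 4, below the others at 8.16 to 8.21. Slc6a6 was 9.13 on Cic-L-null replicate 1, below the others at 9.29 to 9.31. Etv1 was 11.52 on wild-type replicate 1, above the others at 11.22 to 11.27.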

How the results depend on the processing

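Over 20 alternatives, 649 of the gene differences kept their direction and their side of the threshold, 2 crossed it and 29 changed sign. Some alternatives could not change a sign. The permutation test, the limits on dim genes, the variance trend and the replicate block leave the differences as they were. Leaving out the wide probe sets changed only Slco1a4. The 649 therefore overstates how stable the differences were. Both crossings were Itm2a, which made the count of called genes 1 with a variance trend and robust estimation, and 1 without Cic-L-null replicate 3. With arrays left out in turn that count ranged from 0 to 1, the genes below 0 from 24 to 27, their median from -0.10 to -0.051, those lower at an unadjusted p under 0.05 from 2 to 5 and those higher from 2 to 3, and the exact permutation test gave 1 higher. An adjusted p under 0.10 gave 0 calls.

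The way probe sets were combined moved some genes several-fold. With their median Esam was -0.39, Slc38a5 -0.21, Sox17 -0.18 and Vtn -0.020, each on the same side of the threshold. Sign changes concerned small differences. With the median of the probe sets Pecam1 was 0.050, Ramp2 0.013, Ocln 0.059, Abcg2 0.036 and Slco1c1 0.036. With only bright probe sets Slco1c1 was 0.0045 and Abcc9 -0.018. Ocln was 0.0033 with centred arrays, 0.0045 with quantile normalisation and 0.044 with array weights, which gave 0.024 for Slco1c1 and 0.068 for Slc7a5. With arrays left out the ranges were -0.040 to 0.077 for Ocln, -0.037 to 0.047 for Slco1c1, -0.096 to 0.13 for Slc7a5, -0.077 to 0.033 for Slc38a5, -0.061 to 0.027 for Sox17, -0.079 to 0.018 for Sox18, -0.12 to 0.012 for Cdh5 and -0.050 to 0.0024 for Abcg2. The cause was not tested.

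Over all genes the number called was 28, and ranged from 0 to 37 with arrays left out. It was 130 with a variance trend and robust estimation, 2 with the median of the probe sets, 54 with array weights, 69 for genes above the dim limit and 18 with the Y-linked covariate. The replicate block gave 0 calls over all genes and 0 of these 34, with 3 lower and 2 higher at an unadjusted p under 0.05. The exact permutation test over all genes gave 0 calls. Its smallest possible p is 0.0286, so a call after adjustment would need most of all genes to reach that value. These 0 calls therefore say nothing about single genes.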
